A study of Drosophila melanogaster with 4 samples.

Results

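The gene gish (gilgamesh) encodes the fly's gamma-type casein kinase 1, and 39 of the 40180 isoforms in a merged long-read catalogue of Drosophila melanogaster testis belonged to it. Members were all isoforms on the plus strand with an exon in the annotated span of the gene, 3R:16272452-16304768 in Release 6 coordinates. The gene was chosen by its number of isoforms and of internal first exons in this same catalogue, so those counts are given as a description and carry no test. The nearest plus-strand isoforms outside the span ended 4016 bp upstream of it and began 995 bp downstream of it. Just inside, isoform 38 began 15 bp past the upstream limit, and isoform 22 crossed that limit.

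The libraries were PacBio Iso-Seq, in which polyadenylated RNA is read as full-length cDNA. They came from testes of bamGAL4/ KmgRNAi males (2 samples), in which the zinc-finger protein gene kmg is knocked down, and from testes of bamGAL4 males (2 samples), so all 4 samples carried the bamGAL4 driver. This driver acts in germ cells at the end of the spermatogonial divisions, while whole testes with their somatic cells were taken. Each sample was 150 pairs of testes from males 0 to 2 days old, whose parents were crossed for 3 days at 25 °C before the eggs and early larvae were moved to 29 °C, and each library had a run time of 24 h. The series asks about cryptic promoters in male germ cells, yet the deposited annotation pools the 4 samples and has 0 lines that name one. Every value below therefore describes knockdown and control testes together. No isoform could be assigned to a condition, no level and no replicate spread could be measured, and an isoform is counted once whether it came from many reads or few. Of the germline genes looked up, 12 of 13 had an isoform (vas had none under its name), as had 4 of 4 cyst cell genes, 1 of 5 neuronal genes, 3 of 3 muscle genes, 2 of 3 gut and fat body genes and 2 of 3 photoreceptor genes. For comparison, 9006 of all 17872 RefSeq genes had an isoform under their name. Lists this small were not tested against that share, and presence says nothing of abundance.

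Casein kinases 1 are serine/threonine kinases with a conserved catalytic domain and variable ends. The gamma type is held at the plasma membrane through its C-terminal tail, where it phosphorylates the Wnt co-receptor Arrow, and in the fly gish also acts in glial migration, trichome formation and Hedgehog signalling through Smoothened. In the testis it is known for its need in late spermatogenesis, and RefSeq lists the male-sterile name ms(3)89B among its synonyms. Alternative ends of such a gene can thus alter which part of the protein a transcript could encode.

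The 39 isoforms were all spliced, with 2 to 12 exons (median 9.0) and transcript lengths of 754 to 3381 bp (median 2174 bp). They combined 76 distinct exons and 40 distinct introns, of which 18 introns occurred in 1 isoform each. Introns ran between 56 and 17554 bp. There were 34 distinct chains of introns, 4 of which were shared by 9 isoforms in all that differed at their ends alone. Isoform numbers of the members run up to 156 in the deposited locus, which lists 54 isoforms, 39 of gish and 15 of its neighbours. The other numbers are absent from the filtered annotation.

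**Figure D1:**
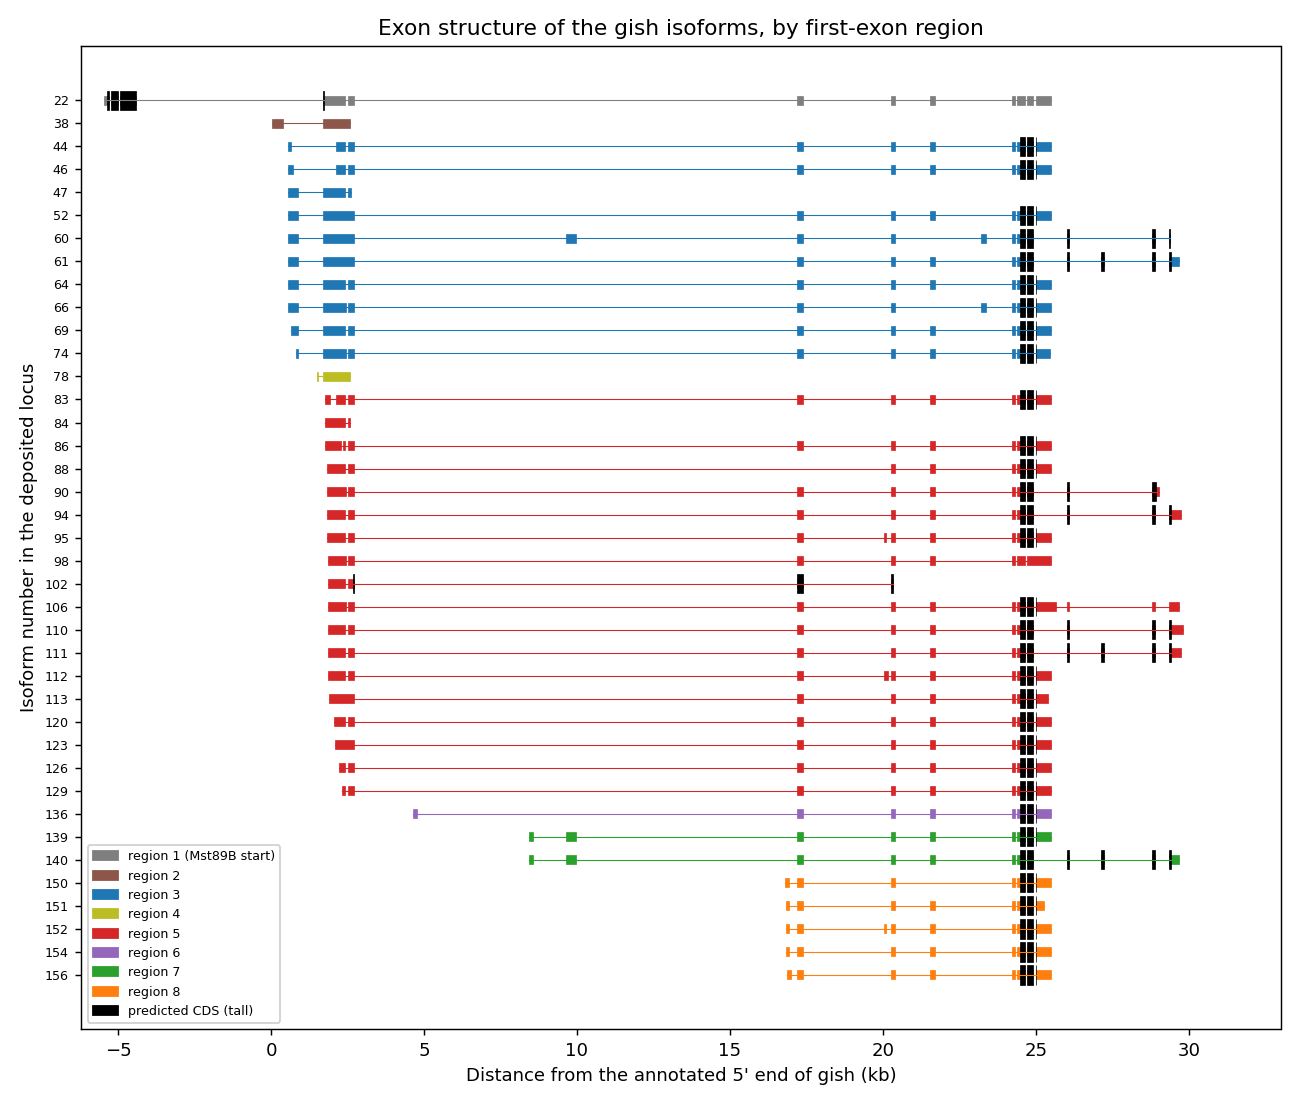
Exons (boxes), introns (lines) and predicted CDS (tall black boxes) of the 39 gish isoforms, against the distance from the annotated 5' end of the gene in kb; colours mark the 8 first-exon regions and numbers are those of the deposited locus. In 32 of the isoforms the CDS starts at one and the same place, however far upstream the isoform begins.

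The 5' ends fell into 8 regions of overlapping first exons, numbered here from 5' to 3', with 16 splice donors between them. Region 5 had the most listed isoforms, 18, which started at 16 positions between 16274221 and 16274760. Region 3 followed with 10 isoforms, whose starts lay between 16273007 and 16273253. Region 8 had 5 isoforms starting between 16289263 and 16289312. Region 7 had 2, both starting at 16280891. Regions 1, 2, 4 and 6 had 1 isoform each. The starts within the annotated span were spread over 16845 bp. Of the 16 donors, 11 were used by a single isoform, so most of the variety in first exons rested on 1 listed isoform per donor.

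Region 2 alone touched the annotated 5' end. Its isoform, number 38, began at 16272467, 15 bp inside the annotated start, spliced from 16272853 to 16274152 and ended at 16275046. Isoform 78 of region 4 had a first exon of 54 bp, joined the same acceptor and stopped at the same base. Neither reached any exon beyond the 5' part of the gene, and neither had a CDS in the file. All the isoforms that ran on to the 3' exons, 34 of 39, began elsewhere.

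In region 3, 8 of 10 isoforms used the donor at 16273330 and joined it to the acceptor at 16274152. The other 2, numbers 44 and 46, started at 16273007 but left the exon early, at 16273112 and 16273155, and joined an acceptor at 16274585. Isoform 83 of region 5 used that same acceptor from a donor at 16274366. In region 5 the donor at 16274881 served 11 isoforms and the donor 4 bp farther, 16274885, served 3 (90, 98 and 106). Isoforms 113 and 123 kept the short intron between 16274882 and 16274953 (72 bp) within the first exon, and 7 of the 39 isoforms retained it in all, against 19 that spliced it from 16274882 and 5 from 16274886.

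Region 5 overlaps the second exon of region 3, so its starts lie inside an exon that region 3 isoforms contain. Isoforms 83 and 86 left that exon at donors of their own, 16274366 and 16274745. Counting all regions, 28 of the 39 isoforms began inside an exon of an isoform with a farther 5' start. For 8 of them (69, 84, 113, 120, 123, 126, 129 and 154) the whole chain of introns was also the end of a longer isoform's chain. In a catalogue of cDNA ends, such a start cannot be told apart from a cDNA that stopped short of the 5' end.

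Regions 6, 7 and 8 lay in long introns of the upstream isoforms and held first exons of their own. Isoform 136 of region 6 started at 16277104 and spliced from 16277209 across 12421 bp to the acceptor at 16289631. The isoforms of region 7, numbers 139 and 140, spliced from 16281011 and 16281024 to an exon of 328 bp (16282081 to 16282408), which isoform 60 of region 3 also contained as an internal exon. In region 8, 4 isoforms used the donor at 16289373 and 1, number 156, the donor at 16289440, and all 5 joined the acceptor at 16289631, at most 257 bp away. The shared acceptor opened an exon of 209 bp that 34 of the 35 isoforms spanning it contained.

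Region 1 lay outside the gene. Isoform 22 began at 16266997, 5455 bp upstream of the annotated start, at the 5' end of Mst89B, a neighbouring gene on the same strand (16267012 to 16268433). Its first introns (60 and 75 bp) were those of 7 and 6 isoforms of the Mst89B side. It then joined a donor at 16268020, used by 2 of those isoforms, across 6131 bp to the gish acceptor at 16274152, used by 10 other gish isoforms. From there it held the standard gish exons to the 3' end at 16297960. Its CDS of 274 codons came mostly from Mst89B and ended 32 bp into the exon that opens at 16274152, at 16274183. Thus 8 introns lay 3' of the stop, and no part of that CDS overlapped the CDS of another gish isoform. No other member contained an exon of Mst89B.

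Between the 5' exons and the common coding region most isoforms agreed. Of the 34 that reached it, 25 ran through exons of 209, 111, 167 and 115 bp with no other exon in between. Isoforms 95 and 152 added an exon of 75 bp (16292476 to 16292550), a multiple of 3, and isoform 112 a longer form of it of 130 bp, which is not. Isoforms 60 and 66 had an exon of 152 bp (16295669 to 16295820) in place of the exon of 167 bp (16293987 to 16294153). No isoform had both, and either length leaves a remainder of 2 on division by 3. Both isoforms with the exon of 152 bp came from region 3, with starts at 16273011 and 16273015, and they parted at the 3' end, where 60 ran to the distal exons and 66 did not. Isoform 150 lacked both exons, and isoform 88 lacked the exon of 209 bp. The exons of 111, 115 and 269 bp were in all 34.

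The predicted CDS was the least varied at its start. Of the 34 isoforms with a CDS, 32 shared the start at 16296946, which lies 110 bp inside the exon of 269 bp. They came from 5 of the 8 first-exon regions, and 4 to 7 of their introns lay 5' of that start. Their 5' UTRs as predicted measured 656 to 2363 bp (median 1433 bp). In these 32 isoforms the first exons of regions 3, 5, 6, 7 and 8 all lay in the predicted 5' UTR, and the CDS began at the same base whichever of them was used. The 2 exceptions were isoform 22 and isoform 102. Isoform 102 started at 16274303, ended at 16292798 after 4 exons and had an open-ended CDS of 103 codons from 16275144.

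The start at 16275144 was also contained in longer isoforms that were given the downstream start. In 26 isoforms both positions lay in exons, and in 21 of them the spliced distance was 738 bp, or 246 whole codons. Both counts include isoform 22, whose CDS starts elsewhere, and isoform 98, which was given no CDS. Isoform 66, with the exon of 152 bp, had 723 bp, and isoform 95, with the exon of 75 bp, had 813 bp, which are multiples of 3 too. In 3 isoforms the distance was not a multiple of 3, at 529 bp in isoform 88, 868 bp in isoform 112 and 1051 bp in isoform 60. From the upstream start through the common stop at 16297465, the commonest path, found in 15 isoforms, measured 1077 bp or 359 codons. On the path of 738 bp, the first 103 codons are those that isoform 102 was given as its open-ended CDS. The rest are lengths alone: no genome sequence was used here, and stops beyond those codons were not looked for. As background, a protein kinase catalytic domain is longer than any CDS from the common start (113 to 229 codons), so none of these predicted CDS is long enough to hold a whole one.

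**Figure D2:**
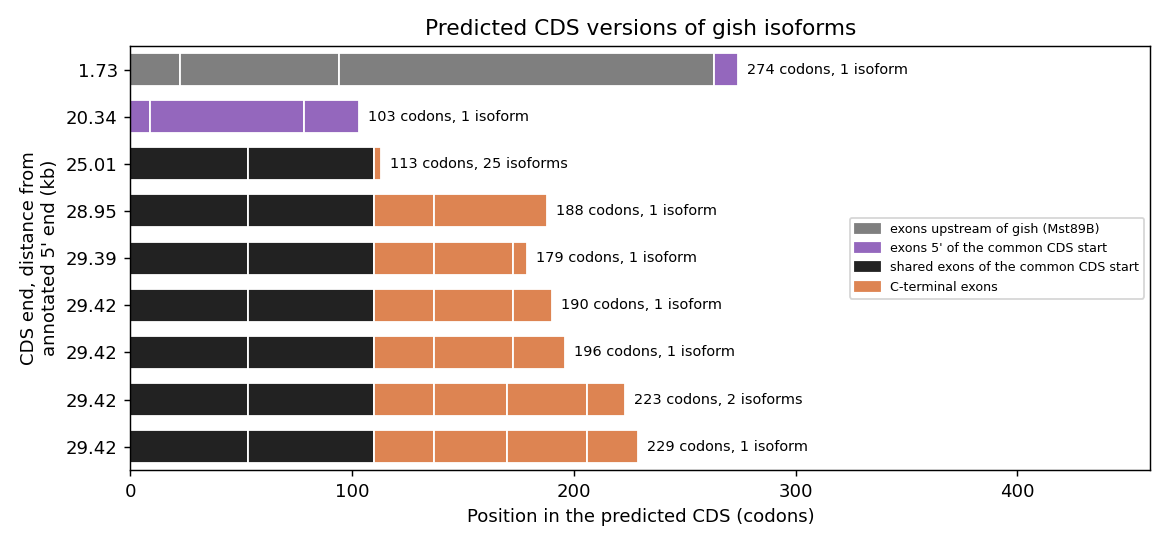
Predicted CDS versions of gish drawn in codons, one row per version, with white lines at exon joins and the number of isoforms beside each; the vertical axis gives where the CDS ends in kb from the annotated 5' end. The 7 versions from the common start share 110 codons and differ in C-terminal exons, and 25 isoforms have the shortest of them, with 113 codons.

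Variation in the CDS lay at the C-terminal side. There were 9 CDS versions, and 7 of them had the common start and the same first 110 codons. In 25 isoforms the CDS then took 3 codons from a proximal terminal exon that opens at 16297457, with the stop at 16297465. Another 7 isoforms skipped that exon and continued into distal exons, which added 69 to 119 codons. The first distal exon (16298470 to 16298550) contributed 27 codons in all 7. An optional exon (16299591 to 16299689) contributed 33 more in isoforms 61, 111 and 140. The next exon, from 16301245, was left at 16301351 by 6 of the 7, and the last coding exon then began at 16301823 (isoforms 60, 94, 111 and 140) or 18 bp earlier at 16301805 (isoforms 61 and 110).

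With these choices isoform 61 had 229 codons, isoforms 111 and 140 had 223, isoform 110 had 196 and isoform 94 had 190, all with the stop at 16301874. Isoform 90 read on past 16301351 and stopped at 16301397, with 188 codons. Isoform 60 had 179 codons, but its transcript ended at 16301843, 2 bp after the last CDS base, so its CDS is open-ended. Isoforms 111 and 140 had the same CDS although they began in regions 5 and 7. Each of the other 5 distal versions came from a single isoform.

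A pair of isoforms departed from both patterns. Isoform 106 entered the proximal exon, left it at 16298122 and went on through distal exons to 16302120. Its CDS stopped at 16297465 nonetheless, so 3 introns and 1143 bp lay 3' of the stop. Isoform 98 retained the intron of 111 bp ahead of the proximal exon (16297346 to 16297456) and was given no CDS. The other 4 isoforms without a CDS, numbers 38, 47, 78 and 84, all ended by 16275080.

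The 3' ends formed 12 groups. The largest held 23 of the 39 isoforms, which ended at 16297959 or 16297960, and those isoforms came from 6 of the 8 first-exon regions. Isoforms 151, 113 and 74 ended earlier in the same exon, at 16297722, 16297852 and 16297932. The 8 isoforms with distal exons ended at 16301471 (isoform 90), 16301843 (60), 16302120 (61, 106 and 140), 16302193 or 16302194 (94 and 111) and 16302270 (110). A further 5 isoforms ended upstream of the common CDS start, 3 of them at the same base, 16275046. All 5 ended inside exons that other isoforms continue. Whether any listed 3' end is a site of polyadenylation was not tested. The farthest end was 2498 bp short of the annotated 3' end of gish at 16304768, and 0 isoforms ended at that position.

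**Figure D3:**
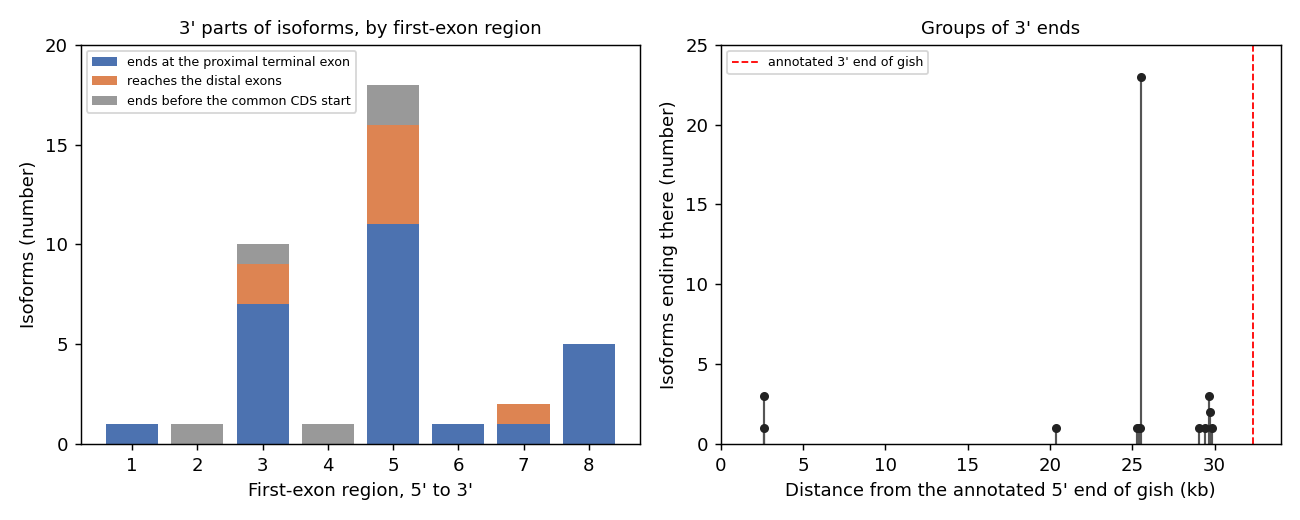
Left, number of gish isoforms in each first-exon region, split by the 3' part (proximal terminal exon, distal exons, or an end before the common CDS start); right, number of isoforms in each of 12 groups of 3' ends, by distance from the annotated 5' end in kb, with the annotated 3' end dashed. One end holds 23 isoforms, and distal exons occur in isoforms of regions 3, 5 and 7.

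Both kinds of 3' part occurred in the 2 regions with the most isoforms. In region 3, 2 isoforms reached the distal exons and 7 ended at the proximal exon, and in region 5 the numbers were 5 and 11. Region 7 had 1 of each. All 5 isoforms of region 8 ended at the proximal exon, as did the single isoforms of regions 1 and 6. With 8 distal isoforms in the whole gene, none in a region of 5 is not a basis for calling the regions different, and no test was made.

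The place of the CDS was unlike that in most of the catalogue. It was not itself a ground for choosing the gene. Introns ahead of the CDS are, however, counted over the same 5' part as the first exons that were, so the measure is not independent of the choice. In gish 32 of 34 isoforms with a CDS had at least 4 introns ahead of it, and these 32 all have the common predicted start. Among other spliced isoforms with a CDS, 733 of 32470 had as many (2.26%, 95% exact binomial interval 2.1 to 2.42, covering counting error alone). The CDS took up a median of 17.1% of the transcript in gish and 70.7% in the others. Among genes with at least 5 spliced coding isoforms, 4 of 2138 others had a median number of introns ahead of the CDS as high as that of gish (6.0). Isoforms of one gene share exons and are not independent, and how the authors' CDS prediction moves with these values was not tested.

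**Figure D4:**
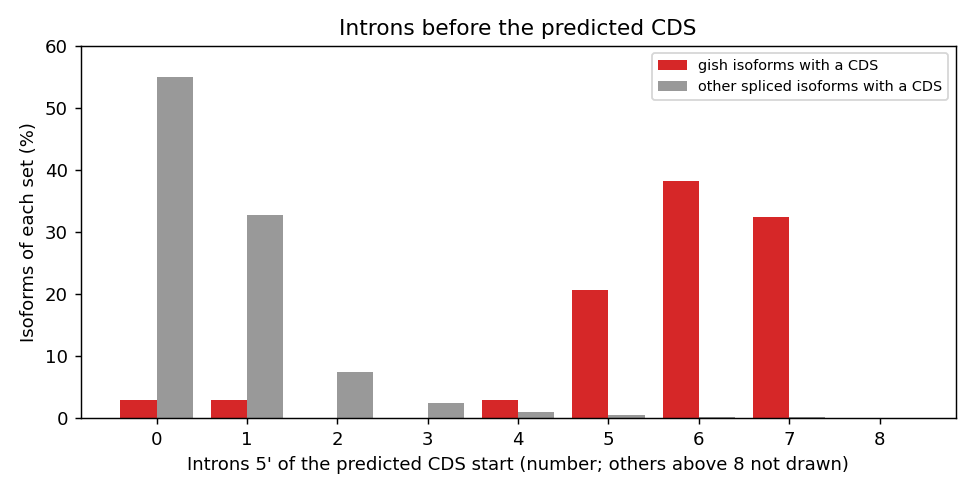
Share of isoforms (%) by the number of introns 5' of the predicted CDS start, for 34 gish isoforms (left bars) and 32470 other spliced isoforms with a CDS (right bars). Most gish isoforms have 5 to 7 such introns, while most others have 0 or 1.

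The other casein kinase 1 type genes differed from gish in that respect. Isoforms were listed for 6 of 8 of them. dco (doubletime), the delta/epsilon-type kinase of the circadian clock and of growth control, had 11 isoforms with 6 first-exon donors, yet 1 CDS stop, and CDS of 441 to 468 codons behind 0 to 4 introns. CkIalpha, the alpha-type kinase that primes beta-catenin for degradation, had 4 isoforms with 1 CDS of 338 codons behind 1 intron. CG2577 (5 isoforms, 345 codons), CG12147 (3 isoforms, 478 codons) and the more distant kinase gene ball (3 isoforms, 370 to 600 codons) had 0 or 1 intron ahead of the CDS. CG7094 had 3 isoforms with 240 to 391 codons. The shortest CDS in these 6 genes was thus 240 codons, longer than any gish CDS from the common start. CG9962 had no isoform under its name, and neither had Asator, which lies on chromosome 4. The pathway partners on that chromosome had none either. These values do not show whether the catalogue covers chromosome 4. An isoform was listed for 9 of 12 Wnt pathway partners and 3 of 6 Hedgehog pathway partners. Leaving out genes of chromosome 4 (2 Wnt pathway partners and 1 Hedgehog pathway partner), the counts were 9 of 10 and 3 of 5. Over all RefSeq genes, 9006 of 17872 had an isoform under their name. None of these lists, the casein kinase 1 type genes included, was tested against that share.

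In counts of isoforms and exons, which the choice of the gene used, gish is described beside the others without a test. Its 39 isoforms were matched or exceeded by 22 of 9099 other loci, its 16 first-exon donors by 13, and its 12 groups of 3' ends by 32. CDS variety was less unusual: 143 loci had at least as many CDS stops as the 6 of gish, and 293 at least as many CDS versions as its 9. Deposited loci can join several genes, whereas gish was counted by its members alone. Its whole deposited locus had 54 isoforms, 22 CDS versions and 11 CDS stops. These places thus set a part of a locus beside whole loci. With genes named by span, 4 of 9005 others had at least as many isoforms and 1 had at least as many donors: cnc, a stress-response transcription factor gene, with 19.

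**Figure D5:**
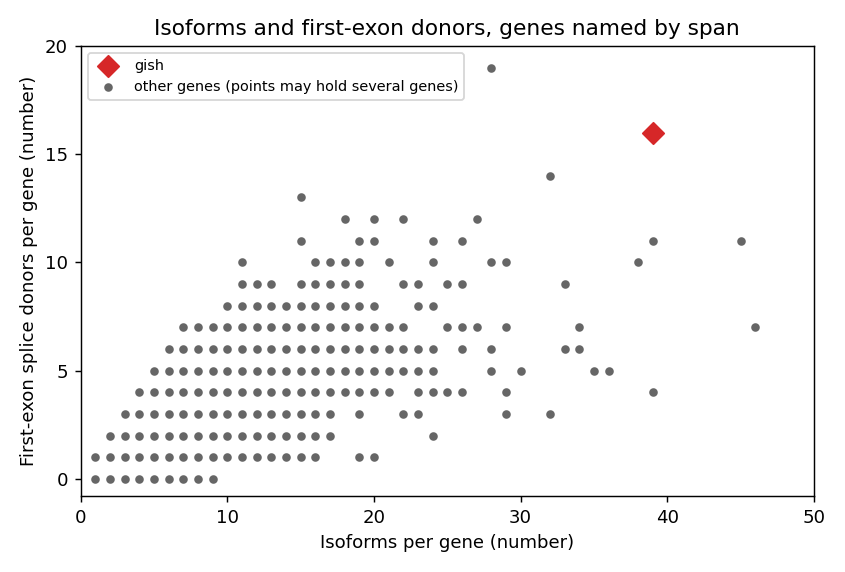
Number of first-exon splice donors against number of isoforms for genes named by span; the diamond is gish (39 isoforms, 16 donors) and a grey point can stand for several of 9005 other genes. One gene, cnc, has more donors.

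By summed difference in first-exon donors and CDS stops, over 189 loci with at least 20 isoforms, the 3 loci most like gish each joined several genes. The first, with CG18659, alc and shrb, had 45 isoforms and the same 16 donors and 6 stops. The second, with CG7886, put and l(3)L1231, had 38 isoforms, 16 donors and 7 stops, and the third, with Aldh-III, p47 and CG11141, had 42 isoforms, 14 donors and 7 stops. All 3 had more CDS versions (21, 17 and 18) than the gish members (9), but they were counted as whole loci. The whole deposited locus that holds gish and its neighbours had 22 CDS versions and 11 stops. With single genes in place of loci, a choice made after the loci were seen, Svil came closest among 78 genes, with 27 isoforms, 12 donors and 6 stops.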

How the data were processed

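The data were Iso-Seq libraries from whole testes (2 knockdown and 2 control samples), deposited as 1 merged annotation of 40180 isoforms at 9100 loci. The authors' deposited values are other than counts: positions of transcripts, exons and CDS parts, and the reading frame. The name of the deposited file records a TAMA merge, correction, filtering (including by tappAS) and an added CDS, with no settings or versions, and the aligner is not stated. Builds BDGP6 and dm6 come from the submitters' processing notes. Depth is unknown, since the file holds no read number.

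Isoforms were parsed in Python 3.11.15. First exons were told apart by splice donor, or joined into regions where they overlapped. 3' ends within 25 bp of the next were joined, and a CDS ending under 3 bp from the transcript's end was called open-ended. Exact binomial intervals (95%) came from SciPy 1.17.1, figures from matplotlib 3.10.9. Genes were named from RefSeq spans of Release 6 extended by 200 bp, on the strand shared by at least 80% of the isoforms with a matching end, where a span held at least 50% of an isoform. This named 34662 isoforms of 9006 genes. For 300 of 300 made-up loci, the true numbers of first-exon donors, CDS stops, 3' ends and introns ahead of the CDS were returned. Gene naming, first-exon regions and units joined by exons were not part of that check. Named genes were gish, the other casein kinase 1 type genes, overlapping genes and the 3 loci most like gish among those with at least 20 isoforms. The next neighbours of gish, the genes closest to it once genes replaced loci, and genes with many introns before the CDS were named after their values were seen. The members and lists were chosen with earlier results of these data known. No test was run, because isoforms of a gene are not replicates and 0 lines name a sample. The alternatives are listed in the closing section.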

Additional observations from a re-analysis of the deposited data

How the results depend on the processing

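Over 11 results and 49 alternatives, 30 values stayed within 1.5 times the reported one. Asking for at least 2 isoforms left 5 of 16 first-exon donors, 4 of 12 groups of 3' ends and 2 of 6 CDS stops, so the rest of each count stands on single isoforms. Joining overlapping first exons, chosen after seeing the data, gave 8, and a gap of 100 bp gave 7 groups of 3' ends. Taking all isoforms of the deposited locus brought in neighbouring genes and gave 22 CDS versions and 11 stops. The place of gish moved most. With units joined by a shared exon base, other units at or above it numbered 0 in isoforms, 5 in donors, 15 in CDS versions, 12 in stops, 5 in 3' ends and 1 in intron chains (13 among loci). With genes named by span, added after seeing the data, they numbered 4, 1, 145, 49, 5 and 2. Units joined by exons include Mst89B through isoform 22, and with it isoforms at the span of asun, the gene upstream of Mst89B. The unit that holds gish counts 52 isoforms there, so its place is not that of gish alone. No paired analysis was possible because the annotation names no sample. Depth is unknown, so isoforms that are not listed may be unsequenced or filtered out.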

Other observations

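A spliced unit on the opposite strand lay within the gish span. Its 2 isoforms ran from 16280668 to 16282626 and from 16280692 to 16282656, had 2 exons each and carried no CDS, and RefSeq's spans give no other gene in that interval. Their longer exons, of 1028 and 987 bp, covered both first exons of region 7. Their other exons, of 349 and 379 bp, overlapped the exon of 328 bp found in isoforms 60, 139 and 140. No other gish isoform had an exon there. Whether the unit and the region 7 isoforms came from the same samples cannot be read from the pooled annotation.

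The 4 other genes whose median number of introns ahead of the CDS was as high as that of gish were Ca-alpha1D, a calcium channel gene (17), CG32181 (9.0), TkR86C, a neuropeptide receptor gene (8), and CG42660 (7).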
